A study of Mus musculus with 4 samples.

Results

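Cholesterol is made from acetyl-CoA, taken up in lipoproteins, stored as esters and exported, and 33 genes of these steps were followed here in activated mouse CD4 T cells. The genes were a list of enzymes, regulators, receptors and transporters matched by symbol in the deposited tables, where all 33 were found among 23284 symbols, each with a single entry. The sterol oxidase gene Msmo1 stands in the tables under its older symbol Sc4mol. The list holds 18 synthesis enzymes, 4 genes of SREBP2 control, 6 of uptake and transport, 1 of esterification and 4 of efflux and liver X receptor (LXR) control, and does not cover every gene of these steps.

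RNA had been sequenced from a pair of populations sorted from the same kind of culture, CCR7loCD137hi and CCR7hiCD137lo, with 2 libraries of each. The receptor CCR7 guides lymphocytes into lymph nodes, while CD137 appears on T cells after activation and gives a costimulatory signal. Both populations were grown from CD4 T cells of the spleen of the inbred strain BALB/c in Th1 conditions, which favour interferon-gamma producers, with IL-2 at 15 ng/ml and IL-12 at 10 ng/ml. The culture lasted 4 days by one label and 5 days by another, the labels name no genetic change or drug, and the age of the mice is not given in the sources used here. Each population has a library numbered 1 and another numbered 2. Whether a number marks a mouse, a culture or a day is not stated, and so every p-value here reflects library-to-library spread alone, which may be technical.

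Cells sense cholesterol in the endoplasmic reticulum. When sterols are low, the escort protein SCAP carries the transcription factor SREBP2 to the Golgi, where it is cut free, and SREBP2 then switches on most synthesis enzymes and lipoprotein receptors. When sterols are high, INSIG proteins hold SCAP back, while oxidised sterols activate LXR, which raises export through the ABC transporters. T cells that enter division are known to raise the SREBP2 programme, since new membrane needs sterol.

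The depth of the libraries, estimated from the steps between low values, was about 11600000 and 6320000 fragments for CCR7loCD137hi libraries 1 and 2 and about 20600000 and 13000000 for CCR7hiCD137lo libraries 1 and 2. The sorting genes followed the labels in every library, with Tnfrsf9, which encodes CD137, at 158 and 184 FPKM in CCR7loCD137hi against 0.961 and 6.25 FPKM in CCR7hiCD137lo. FPKM are fragment counts scaled to transcript length and to the depth of the library. All 7 T cell markers were present in each library, summing to 1340 and 1570 FPKM in CCR7loCD137hi and to 1370 and 1510 FPKM in CCR7hiCD137lo. The 18 markers of other cells summed to 21.4 FPKM in CCR7loCD137hi library 1, to 9.75 FPKM in CCR7loCD137hi library 2, and to 4.36 and 5.49 FPKM in CCR7hiCD137lo libraries 1 and 2. Of these 18 markers 8 were higher in both CCR7loCD137hi libraries than in either CCR7hiCD137lo library. That pattern was seen in 16.6% of all genes with a mean of at least 1 FPKM, a level that most of these markers do not reach. The 4 CD8 T and NK cell markers summed to 14.5 and 4.38 FPKM in CCR7loCD137hi libraries 1 and 2. In CCR7hiCD137lo libraries 1 and 2 they summed to 2.63 and 4.58 FPKM. Cd8b1, the most expressed of the 18 markers, stood at 8.48 and 3.78 FPKM, against 2.63 and 4.555 FPKM, in the same order. Its populations overlapped. The 4 B cell markers summed to 3.48 and 0.211 FPKM, against 0.0431 and 0.0683 FPKM, again in that order. The B cell gene Pax5 and the CD8 gene Cd8a stood at 0.427 and 3.68 FPKM in CCR7loCD137hi library 1. Csf1r and Pf4, of macrophages and platelets, were listed at 0 in all 4 libraries, but their lists were not. The 6 myeloid and dendritic markers summed to 2.60 and 3.61 FPKM in CCR7loCD137hi libraries 1 and 2, against 1.57 and 0.702 FPKM in CCR7hiCD137lo libraries 1 and 2. The 4 erythroid and platelet markers summed to 0.872 and 1.56 FPKM, against 0.112 and 0.133 FPKM, in the same order. The part of these other cells in the results below was not tested.

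Promoter windows are shown first. Of the 18 synthesis genes 16 were higher in both libraries numbered 2 than in either numbered 1, where 30.6% of all genes tested were. Whether promoter letters have a part in this was not tested. RefSeq windows on GRCm38.p6, the patch release of mm10, hold 250 bases before and 50 after a start site, in the reference genome and not in BALB/c. They matched 27 of the 33 genes, and not Fdps, Fdft1, Sqle, Abcg1, Npc1 and Stard4. Capitals mark CCAAT, the box bound by NF-Y, a partner of SREBP2 at sterol genes, which reads ATTGG on the other strand. In Hmgcs1 they also mark TCACNCCAC, letters of the sterol regulatory element. Hmgcs1 is shown as the most expressed synthesis enzyme with a window, Sc4mol and Mvd as the next 2 with a CCAAT match by their difference between library numbers, Insig1 for control and Abca1 for export. The windows of Sc4mol and Mvd were chosen after their values were seen, and a CCAAT match was a condition of the choice. Dhcr7 and Pmvk, also higher in both libraries numbered 2, held no CCAAT match, while Ebp, lower in both, held 2. The start sites of the Pmvk and Lrp8 windows lay 453 and 626 bases from the starts of these genes in the deposited data. Both distances exceed the 250 bases held before a start site, so these windows may belong to other start sites.
Hmgcs1, chr13:119690101-119690400, plus strand: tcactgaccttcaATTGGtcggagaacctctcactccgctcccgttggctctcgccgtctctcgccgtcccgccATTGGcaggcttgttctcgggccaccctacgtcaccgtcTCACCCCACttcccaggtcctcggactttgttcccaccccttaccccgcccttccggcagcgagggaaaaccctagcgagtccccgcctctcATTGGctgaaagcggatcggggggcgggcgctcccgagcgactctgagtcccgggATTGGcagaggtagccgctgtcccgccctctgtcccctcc
Sc4mol, chr8:64733529-64733828, minus strand: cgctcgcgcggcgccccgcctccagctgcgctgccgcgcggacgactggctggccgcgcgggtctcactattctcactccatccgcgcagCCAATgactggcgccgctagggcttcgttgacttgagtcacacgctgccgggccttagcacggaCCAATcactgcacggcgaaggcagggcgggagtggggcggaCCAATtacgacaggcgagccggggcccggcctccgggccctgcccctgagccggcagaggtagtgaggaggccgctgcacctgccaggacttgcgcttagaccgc
Mvd, chr8:122443373-122443672, minus strand: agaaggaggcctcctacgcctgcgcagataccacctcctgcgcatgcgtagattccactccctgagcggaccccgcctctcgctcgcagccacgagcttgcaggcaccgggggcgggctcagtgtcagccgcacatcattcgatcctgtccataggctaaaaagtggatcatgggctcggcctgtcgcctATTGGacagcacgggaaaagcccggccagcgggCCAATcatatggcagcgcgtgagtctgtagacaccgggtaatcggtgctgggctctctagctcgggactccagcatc
Insig1, chr5:28071162-28071461, plus strand: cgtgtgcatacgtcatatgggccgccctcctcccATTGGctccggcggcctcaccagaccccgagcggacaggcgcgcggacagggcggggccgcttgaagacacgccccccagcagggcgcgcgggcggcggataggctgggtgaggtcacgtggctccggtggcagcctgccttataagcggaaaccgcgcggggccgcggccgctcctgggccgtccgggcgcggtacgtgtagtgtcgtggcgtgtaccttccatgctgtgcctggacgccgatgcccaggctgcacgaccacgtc
Abca1, chr4:53159846-53160145, minus strand: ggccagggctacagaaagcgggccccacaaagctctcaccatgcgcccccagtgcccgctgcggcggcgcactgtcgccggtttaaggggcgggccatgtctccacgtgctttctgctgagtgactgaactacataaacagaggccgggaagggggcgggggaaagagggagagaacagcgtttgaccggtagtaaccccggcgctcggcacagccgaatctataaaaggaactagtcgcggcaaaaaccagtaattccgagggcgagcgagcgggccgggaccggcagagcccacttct

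The CCAAT box was common in the windows of synthesis enzymes. It was found on either strand in 12 of 15 windows of synthesis enzymes (80%) and in 7 of 12 windows of the other genes (58.3%), against 39.6% of the windows of the 7463 tested genes that have one. Mvk, the mevalonate kinase gene, held 5 copies, Hmgcs1 and the sterol dehydrogenase gene Nsdhl held 4 each, and the windows of Acat2, Pmvk and Dhcr7 held none. The letters TCACNCCAC were found in the Hmgcs1 window alone of the 27, starting 137 bases before the start site, and in 1.05% of the 7463 windows. Other forms of the sterol element, and bases outside the windows, were not searched. No conclusion is drawn for genes without a match to these letters. The LXR element, searched as an exact direct repeat of AGGTCA with 4 bases between, was found in 0 of the 27 windows and in 0 of the 7463. Letters that no window holds cannot tell these genes from others, so no conclusion is drawn for Abca1 or any other gene. All 3 motifs were searched on both strands. The TCACNCCAC match in Hmgcs1 did not overlap a CCAAT match, and a match describes letters and not binding.

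**Figure D1:**
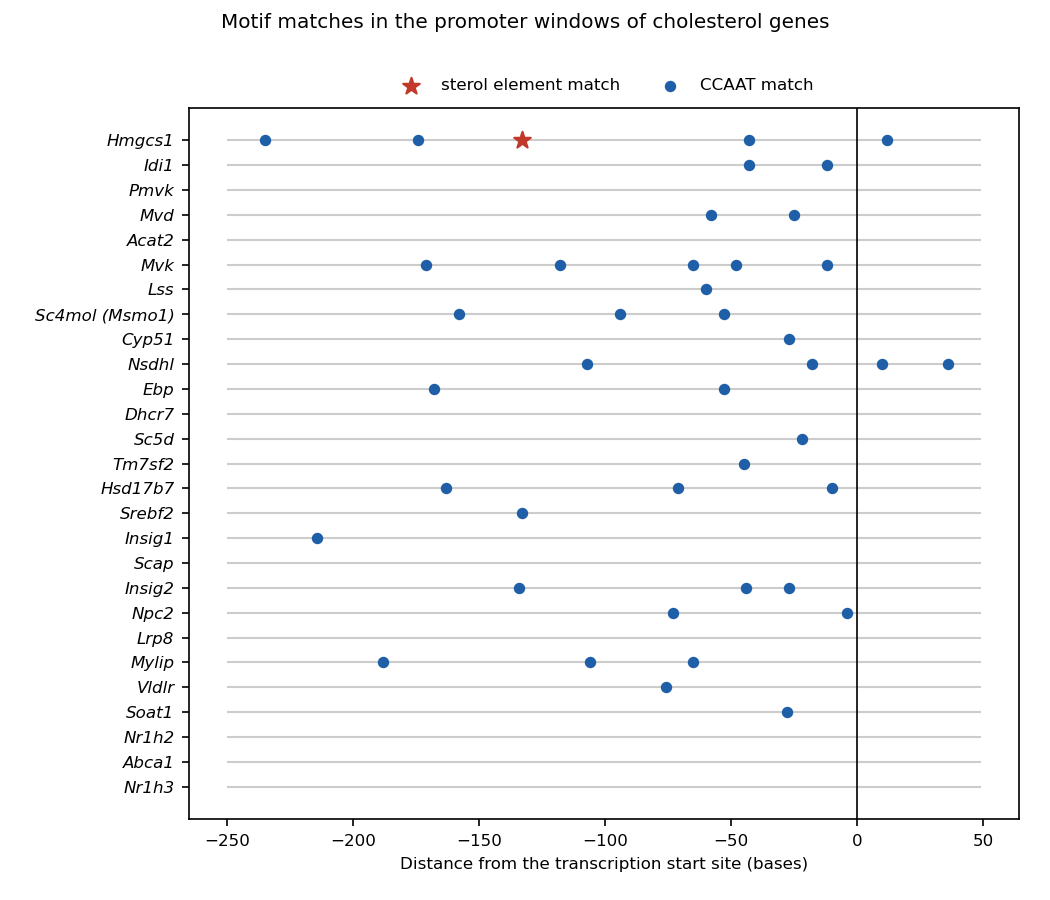
Positions of motif matches (points) in the promoter windows of 27 cholesterol genes, in bases from the transcription start site, with genes in order of pathway step. Blue points are CCAAT on either strand, most of them in the windows of synthesis enzymes at the top. The red star is the only match to the letters TCACNCCAC, in Hmgcs1.

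All 18 synthesis enzymes were expressed in both populations, and 0 passed limma's test between them, described below. Their mean FPKM ranked from above 37.9% of all tested genes for Hsd17b7 to above 96.7% for Fdps. The 18 enzymes summed to 1314 and 910.4 FPKM in CCR7loCD137hi libraries 2 and 1, against 1257 and 730.7 FPKM in CCR7hiCD137lo libraries 2 and 1. The sum was thus higher in CCR7loCD137hi by 1.25 times between the libraries numbered 1 and by 1.05 times between those numbered 2. Between library numbers it was 1.44 times higher in library 2 than in library 1 of CCR7loCD137hi and 1.72 times higher in library 2 than in library 1 of CCR7hiCD137lo. In this sum the library numbers were further apart than the populations. In bulk RNA such as this, fewer cells that express a gene and less RNA of it per cell cannot be told apart.

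**Figure D2:**
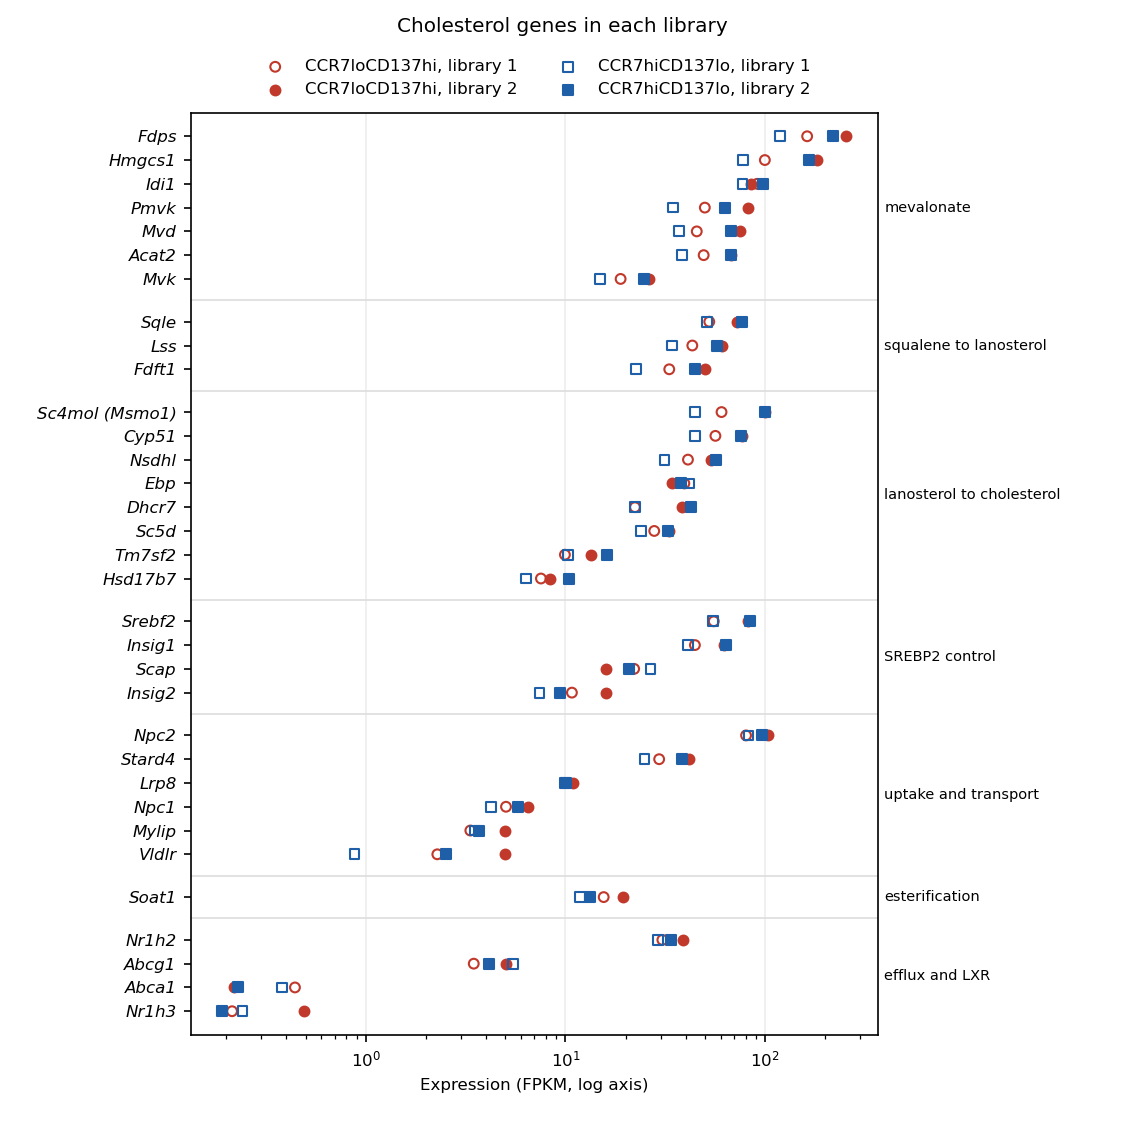
Expression (FPKM, log axis) of the 33 cholesterol genes in each of the 4 libraries, by pathway step. Red circles are CCR7loCD137hi, blue squares are CCR7hiCD137lo, and filled symbols are libraries numbered 2. For most enzymes the filled symbols of both populations lie together, to the right of the open ones.

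Over all 10496 genes with a mean of at least 1 FPKM, limma's test of CCR7loCD137hi against CCR7hiCD137lo called 0.0476% of genes higher and 0.00953% lower at a Benjamini-Hochberg adjusted p under 0.05. Of the 33 cholesterol genes 31 entered that test and 0 passed, with a lowest limma adjusted p of 0.613. At an unadjusted p under 0.05 limma gave 1 of the 31 as higher, Soat1, and none as lower, where 4.64% of all genes were higher and 3.49% lower. The log2 difference, taken on log2(FPKM + 1) and positive where CCR7loCD137hi was higher, had a median of 0.151 over the 31 genes and of -0.0122 over all genes tested. It was above 0 for 23 of the 31 (74.2%), against 47.9% of all genes. The median was -0.0413 without CCR7loCD137hi library 2 and -0.141 without CCR7hiCD137lo library 1, and 0.333 and 0.383 without the other library of CCR7loCD137hi and of CCR7hiCD137lo.

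The mevalonate steps, which build the isoprenoid units of sterols, held the most expressed genes of the set. Fdps, which encodes farnesyl diphosphate synthase and lies on chromosome 3 of mm10 (89093588 to 89101967), stood at 255 and 162 FPKM in CCR7loCD137hi libraries 2 and 1, against 219 and 118 FPKM in CCR7hiCD137lo libraries 2 and 1. Hmgcs1, the gene for HMG-CoA synthase (chromosome 13, 119690462 to 119708077), whose promoter window holds the TCACNCCAC letters shown above, stood at 183 and 99.7 FPKM in CCR7loCD137hi, against 166 and 77.2 FPKM in CCR7hiCD137lo, in the same order. For both genes the populations overlapped, and each library numbered 2 lay above each numbered 1. Pmvk, phosphomevalonate kinase, had the largest difference between populations of this step, at 82.3 and 49.9 FPKM in CCR7loCD137hi libraries 2 and 1, against 62.7 and 34.5 FPKM in CCR7hiCD137lo libraries 2 and 1. Its log2 difference was 0.45 (SE 0.383, limma adjusted p = 0.808), and ran from 0.03 without CCR7hiCD137lo library 1 to 0.88 without CCR7hiCD137lo library 2. All 7 genes of the step were fitted above 0, from 0.03 for Idi1 to 0.45 for Pmvk, with a median of 0.212. Acat2, the thiolase of the first step, lies beside Acat3, a close paralog at 14.6 and 10.2 FPKM in CCR7loCD137hi and 16.2 and 7.88 FPKM in CCR7hiCD137lo libraries 2 and 1, so reads may be split between them.

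The 3 enzymes that make squalene and turn it into lanosterol were also higher in the libraries numbered 2. Sqle, squalene epoxidase, stood at 72.3 and 52.5 FPKM in CCR7loCD137hi libraries 2 and 1, against 76.8 and 51.1 FPKM in CCR7hiCD137lo libraries 2 and 1. Lss, lanosterol synthase, stood at 60.5 and 43.2 FPKM in CCR7loCD137hi, against 57.3 and 34.1 FPKM in CCR7hiCD137lo, in the same order. Fdft1, squalene synthase, stood at 50.2 and 33.1 FPKM in CCR7loCD137hi, against 44.4 and 22.7 FPKM in CCR7hiCD137lo, in the same order. The populations overlapped for all 3, while the libraries numbered 2 lay above those numbered 1. Fdft1 had the largest log2 difference between populations of this step (0.35, SE 0.386, limma adjusted p = 0.854). An exon of Fdft1 overlaps the cathepsin gene Ctsb on the other strand, and whether reads were assigned by strand is not given in the sources used here. In all, 7 of the 33 genes share exon bases with a gene on the opposite strand and 3 with one on the same strand.

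From lanosterol to cholesterol the differences between populations went both ways. Sc4mol, the methylsterol oxidase, stood at 99.4 and 60.5 FPKM in CCR7loCD137hi libraries 2 and 1, against 100.3 and 44.7 FPKM in CCR7hiCD137lo libraries 2 and 1. Cyp51, lanosterol demethylase, stood at 77.02 and 56.4 FPKM in CCR7loCD137hi, against 75.4 and 44.6 FPKM in CCR7hiCD137lo, in the same order. In both genes the libraries numbered 2 were nearly level between populations, and those numbered 1 were not. Of the 8 genes 4 were fitted above 0 and 4 below, from -0.15 for the sterol reductase gene Tm7sf2 to 0.21 for Sc4mol, with a median of 0.0402. Ebp, a sterol isomerase gene named after its values were seen, went against the other enzymes by library number, at 34.0 and 39.4 FPKM in CCR7loCD137hi libraries 2 and 1 and 38.1 and 41.7 FPKM in CCR7hiCD137lo libraries 2 and 1. Its lower libraries were thus those numbered 2, in both populations.

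Among the control genes Insig2 stood apart from Insig1. Srebf2, which encodes SREBP2 itself (chromosome 15, 82147269 to 82204960), stood at 82.0 and 55.3 FPKM in CCR7loCD137hi libraries 2 and 1, against 84.2 and 54.7 FPKM in CCR7hiCD137lo libraries 2 and 1. Insig1, itself an SREBP2 target, stood at 62.2 and 44.5 FPKM in CCR7loCD137hi, against 63.8 and 41.0 FPKM in CCR7hiCD137lo, in the same order. Both genes were close between populations within a library number and higher in the libraries numbered 2. Insig2, whose product also holds SCAP back (chromosome 1, 121304353 to 121332580), stood at 16.1 and 10.8 FPKM in CCR7loCD137hi libraries 2 and 1, against 9.43 and 7.43 FPKM in CCR7hiCD137lo libraries 2 and 1. The populations did not overlap, CCR7loCD137hi being higher, with a log2 difference of 0.60 that did not pass (SE 0.241, limma adjusted p = 0.637). Scap, named after its values were seen, stood at 16.0 and 22.1 FPKM in CCR7loCD137hi libraries 2 and 1, against 20.9 and 26.7 FPKM in CCR7hiCD137lo libraries 2 and 1. It had the lowest log2 difference of the 31 genes tested (-0.32, SE 0.220, limma adjusted p = 0.766), and it was lower in CCR7loCD137hi within both numbers, though the populations overlapped.

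Uptake and transport genes spanned from under 1 to about 100 FPKM. Npc2, which with Npc1 moves cholesterol out of lysosomes, stood at 103 and 80.3 FPKM in CCR7loCD137hi libraries 2 and 1, against 96.2 and 82.6 FPKM in CCR7hiCD137lo libraries 2 and 1. Stard4, a sterol carrier of the cytosol, stood at 41.4 and 29.5 FPKM in CCR7loCD137hi, against 38.6 and 24.9 FPKM in CCR7hiCD137lo, in the same order. For these genes too the populations overlapped. Vldlr, a lipoprotein receptor gene (chromosome 19, 27217020 to 27254231), stood at 4.99 and 2.29 FPKM in CCR7loCD137hi libraries 2 and 1, against 2.51 and 0.8796 FPKM in CCR7hiCD137lo libraries 2 and 1. It was 2.60 times higher in CCR7loCD137hi between the libraries numbered 1 and 1.99 times higher between those numbered 2. The populations still overlapped, since CCR7hiCD137lo library 2 lay above CCR7loCD137hi library 1. Its log2 difference of 0.79 was the highest of the 31 genes (SE 0.452, limma adjusted p = 0.731), and ran from 0.34 without CCR7hiCD137lo library 1 to 1.24 without CCR7hiCD137lo library 2. Lrp8, a related receptor, was at 10.5 ± 0.442 FPKM in CCR7loCD137hi and 9.99 ± 0.140 FPKM in CCR7hiCD137lo (SD, n = 2 each). All 6 genes of this step were fitted above 0, with a median of 0.159.

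Soat1 encodes an enzyme that turns cholesterol into its stored ester (chromosome 1, 156428108 to 156474328). The gene was higher in both CCR7loCD137hi libraries than in either CCR7hiCD137lo library. It stood at 19.4 and 15.6 FPKM in CCR7loCD137hi libraries 2 and 1, against 13.3 and 11.9 FPKM in CCR7hiCD137lo libraries 2 and 1. The fold was 1.46 between the libraries numbered 2 and 1.31 between those numbered 1, and the log2 difference of 0.44 did not pass (SE 0.165, limma adjusted p = 0.613). Soat1, Insig2 and Lrp8 were the 3 of 31 genes whose populations did not overlap with CCR7loCD137hi higher (9.68%), where 16.6% of all genes tested had that pattern, and none had the reverse pattern, which 21.5% of all genes had. A share of this size is below that of all genes.

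Export genes were low, and the LXR genes were unequal. Nr1h2, which encodes LXR beta, stood at 39.0 and 30.6 FPKM in CCR7loCD137hi libraries 2 and 1, against 33.7 and 29.2 FPKM in CCR7hiCD137lo libraries 2 and 1. Abcg1, an exporter gene, stood at 5.06 and 3.48 FPKM in CCR7loCD137hi, against 4.14 and 5.46 FPKM in CCR7hiCD137lo, in the same order. Its difference between populations turned with the number, at -0.53 in log2 between the libraries numbered 1 and 0.24 between those numbered 2. Abca1, the other exporter gene and also named after its values were seen, stood at 0.220 and 0.443 FPKM in CCR7loCD137hi libraries 2 and 1, against 0.229 and 0.380 FPKM in CCR7hiCD137lo libraries 2 and 1, so the lower libraries were those numbered 2. Nr1h3, the gene of LXR alpha, was at 0.354 ± 0.198 FPKM in CCR7loCD137hi and 0.217 ± 0.0355 FPKM in CCR7hiCD137lo (SD, n = 2 each). Abca1 and Nr1h3 fell short of the filter on low values and were not tested. Behind the Nr1h3 values stand only about 5 to 9.9 fragments a library if its longest transcript of 1985 nt is assumed. A small difference could not be told from counting error at this depth, and no limit of detection was worked out.

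Within library numbers the synthesis enzymes shared a pattern that the sum had shown. CCR7loCD137hi was higher than CCR7hiCD137lo for 16 of 18 enzymes between the libraries numbered 1, with a median log2 difference of 0.327. Between the libraries numbered 2 it was higher for 9 of 18, with a median of 0.0046. Over the 31 genes it was higher for 25 in number 1 and 19 in number 2, where 52.3% and 44.6% of all genes were. With its sign kept, CCR7loCD137hi minus CCR7hiCD137lo, the difference was higher in number 1 than in number 2 for each of the 18 enzymes, as it was for 6 of the 13 other tested members and 59.4% of all genes. In size alone it was the other way for Ebp, Tm7sf2, Dhcr7, Sqle and Hsd17b7, whose difference was below 0 in number 2. This difference of differences could not be tested, since 4 libraries leave no spread for it. Over all 31 genes the median was 0.233 in number 1 and 0.0771 in number 2, against 0.0131 and -0.0363 over all genes tested. Of the 31 genes 16 were higher in CCR7loCD137hi within both numbers and 3 were lower within both, where 33% and 35.9% of all genes were. The 3 were Ebp, Tm7sf2 and Scap.

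**Figure D3:**
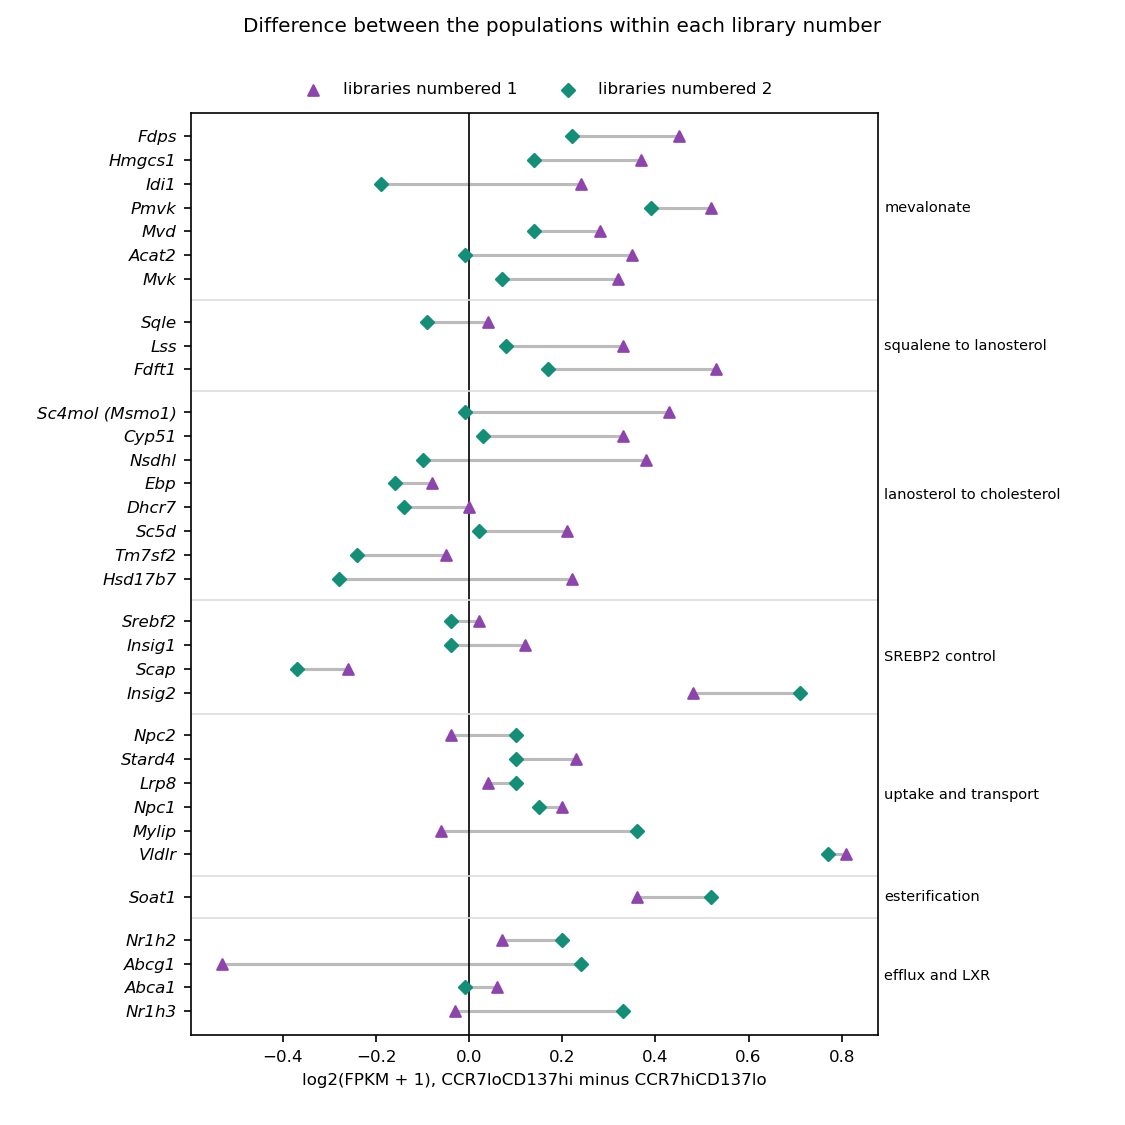
Difference in log2(FPKM + 1), CCR7loCD137hi minus CCR7hiCD137lo, for the 33 genes between the libraries numbered 1 (purple triangles) and between those numbered 2 (green diamonds), with a grey line joining both values of a gene. Among the enzymes in the top 3 blocks the triangle lies to the right of the diamond in all 18, while Vldlr, Insig2 and Soat1 lie to the right of 0 in both.

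Library numbers were then compared with population as a term in the fit. Of all genes, limma called none higher (0%) and 0.0381% lower in the libraries numbered 2 against those numbered 1, and 0 of the 31 cholesterol genes passed. At an unadjusted p under 0.05, 23 of the 31 genes were higher and 1, Scap, was lower in limma's fit, where 18.3% of all genes were higher and 10.4% lower. The lowest limma adjusted p was 0.0876, for Hmgcs1, Dhcr7, Pmvk and Mvd. Their log2 differences, numbered 2 minus numbered 1, were 0.98 (SE 0.0930) for Hmgcs1, 0.83 (SE 0.0894) for Dhcr7, 0.78 (SE 0.0850) for Pmvk and 0.78 (SE 0.0858) for Mvd. The median was 0.543 over the 31 genes and 0.604 over the 18 enzymes, against 0.0598 over all genes tested. This fit has a single residual degree of freedom.

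Both libraries numbered 2 lay above both numbered 1 for 24 of the 31 genes (77.4%), where 30.6% of all genes did, and below them for 2, Ebp and Scap, where 19.8% did. Of the enzymes 16 of 18 lay above, all but Idi1 and Ebp. By step the median log2 difference between numbers was 0.766 for the mevalonate enzymes, 0.603 from squalene to lanosterol and 0.546 from lanosterol to cholesterol. It was 0.485 for the control genes, 0.314 for uptake and transport, 0.23 for Soat1 and 0.162 for the tested efflux and LXR genes, Nr1h2 and Abcg1. Dhcr7, a reductase of the last steps to cholesterol picked after its values were seen, stood at 38.5 and 42.5 FPKM in the libraries numbered 2 of CCR7loCD137hi and CCR7hiCD137lo, against 22.3 FPKM in both numbered 1. Idi1, an isomerase gene of the mevalonate steps that was picked in the same way, overlapped between numbers, at 85.4 and 97.3 FPKM in the libraries numbered 2, against 91.1 and 77.1 FPKM in those numbered 1, with CCR7loCD137hi given before CCR7hiCD137lo. Over the 7 T cell markers the log2 difference between numbers ran from -0.01 for Lck to 0.71 for Cd4. Cd4 stood at 176 and 182 FPKM in the libraries numbered 2, against 95.6 and 125 FPKM in those numbered 1, in the same order. Cd3d, Cd3e and Cd3g were also higher in both libraries numbered 2, while the numbers overlapped for Cd2, Cd5 and Lck. What the numbers stand for, and so what part a batch has in this, was not tested.

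**Figure D4:**
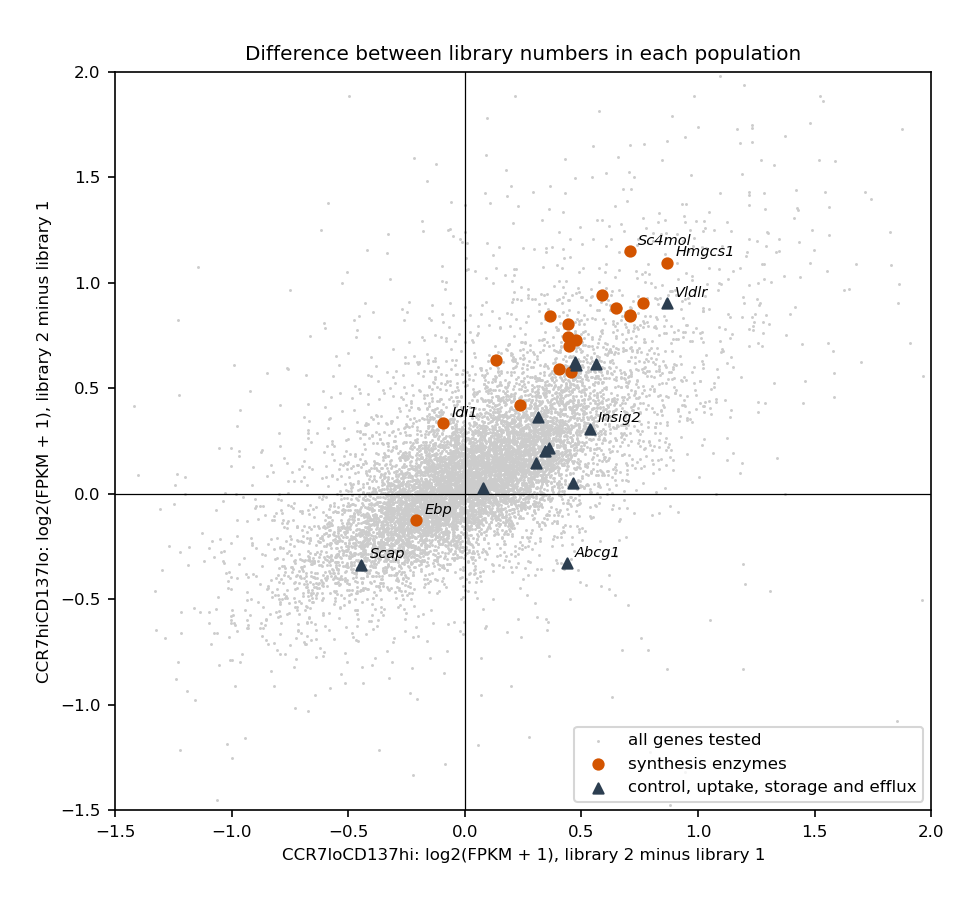
Difference in log2(FPKM + 1), library 2 minus library 1, in CCR7loCD137hi (x axis) and in CCR7hiCD137lo (y axis), for all 10496 tested genes (grey, 135 of them outside the axes), synthesis enzymes (orange circles) and the other cholesterol genes tested (dark triangles). Of the 18 enzymes 16 lie in the upper right, Ebp lies in the lower left and Idi1 in the upper left.

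Other genes of cholesterol handling, a list of 24 set apart from the 33, were fitted in the same way. Of these, 19 were tested and limma called 0 between populations and 0 between numbers. At an unadjusted p under 0.05 limma gave 0 as higher and 1 as lower in CCR7loCD137hi, where 4.64% and 3.49% of all genes were. It gave 3 as higher and 2 as lower in the libraries numbered 2, where 18.3% and 10.4% of all genes were. The median log2 difference was -0.0541 between populations and 0.0589 between numbers. Lipa, the lysosomal lipase that frees cholesterol from its esters, was the one at an unadjusted p under 0.05 between populations, at 10.9 and 9.30 FPKM in CCR7loCD137hi libraries 2 and 1, against 14.6 and 13.5 FPKM in CCR7hiCD137lo libraries 2 and 1 (log2 difference -0.45, limma adjusted p = 0.572). Scarb1, a lipoprotein receptor gene, stood at 39.97 and 27.9 FPKM in CCR7loCD137hi, against 34.6 and 25.8 FPKM in CCR7hiCD137lo, in the same order. It was among the 3 higher in the libraries numbered 2, with Gramd1b and Soat2. Soat2 stood at 5.42 and 1.65 FPKM in CCR7loCD137hi libraries 2 and 1, and 2.79 and 1.23 FPKM in CCR7hiCD137lo in the same order. Its log2 difference was 1.02 between numbers and 0.50 between populations, which overlapped. The 2 lower in the libraries numbered 2 were Pdss1 and Tmem97, with log2 differences between numbers of -0.68 and -0.25. Srebf1, the gene of the related factor SREBP1, was level in all 4 libraries, from 43.3 to 45.9 FPKM. The 5 genes of the list that were not tested lay under the filter on low values. The genes named here were chosen after their values were seen.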

How the data were processed

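RNA was measured in 4 libraries. The FPKM values are the authors' own, deposited as 1 table per library. Tools and build named per the submitters' processing notes are mm10, Cufflinks 2.0.2, TopHat 1.3.2 and Bowtie 0.12.8, with no roles. Which annotation and strand setting were used, and whether libraries were scaled to each other, is not given in the sources used here. Per the labels' protocols, the library kit was a stranded mRNA kit and RNA came from TRIzol.

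Groups and library numbers came from the labels. The 23746 entries gave 23284 symbols, the entry with the highest mean being kept. Starts are the files' raised by 1. Genes with a mean of at least 1 FPKM were fitted on log2(FPKM + 1), which understates differences of low genes, with limma 3.58.1 in R 4.3.3 (variance trend, two-sided, Benjamini-Hochberg over 10496 genes, threshold 0.05), after a check on simulated data. Population alone was fitted with 2 residual degrees of freedom, and number beside population with 1. With 2 libraries against 2 the smallest exact permutation p is 0.333. Alternatives were another pseudocount, filter, scaling and trend, a term for number, and each library left out.

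Depth came from ratios of values under 0.3 FPKM, of which 59.8% to 61.3% were ratios of whole fragments within 0.002 in natural log, and its scale from 18 genes of 1 exon, assuming fragments of 200 nt. For a 1 kb gene, 3 fragments equal 0.258 and 0.474 FPKM in CCR7loCD137hi libraries 1 and 2 and 0.145 and 0.23 FPKM in CCR7hiCD137lo libraries 1 and 2, counting error only. Exon overlaps were read from GENCODE and promoter windows from RefSeq, taking for each gene the window nearest the files' start.

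The members and lists were chosen with earlier results of these data known. Values in every library were given for the 2 most expressed genes of each step and the one with the largest population difference, and all other genes with values were named after their values were seen. Plots used Python 3.11.15 and matplotlib 3.10.9.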

Additional observations from a re-analysis of the deposited data

How the results depend on the processing

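No cholesterol gene passed limma's test in any fit of all 4 libraries, between populations (lowest adjusted p 0.11) or between library numbers (lowest adjusted p 0.0841). The 0.11 was limma's adjusted p for Vldlr with a term for number, the replicate block, against 0.731 in the main fit. For Insig2, Pmvk and Soat1 the block gave limma adjusted p of 0.115, 0.118 and 0.135, against 0.637, 0.808 and 0.613. The fit with the block has 1 residual degree of freedom. A pseudocount of 0.1 and quantile normalization kept the sign of the population difference in all 31 genes. The filter, the variance trend and the replicate block cannot change a gene's difference in this balanced design, and only its test. Quantile normalization turned the difference between numbers to -0.01 for Lrp8 and -0.09 for Abcg1. Over all genes limma called 6 between populations, against 12 to 30 with 1 library left out, 2 without a trend, 2 under quantile normalization and 1 with no filter. Between numbers it called 4, against 8 with a pseudocount of 0.1 and 1 with no filter. The labels do not say that a number pairs libraries, and deviations of same-numbered libraries correlated at r = 0.214 over 10496 genes. With the replicate block limma called 42 genes between populations, none of the 33.

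Leaving out 1 library, which leaves the other of its population assumed to vary like the rest, moved the members' median log2 difference between populations to between -0.141 and 0.383. It turned the sign of 24 of 31 genes at least once. The log2 differences ran from -0.36 to 0.07 for Abcg1, -0.23 to 0.57 for Acat2, -0.19 to 0.55 for Cyp51, -0.52 to 0.38 for Dhcr7, -0.12 to 0.82 for Fdft1, -0.11 to 0.78 for Fdps, -0.30 to 0.80 for Hmgcs1, -0.35 to 0.28 for Hsd17b7, -0.14 to 0.19 for Idi1, -0.27 to 0.35 for Insig1, -0.16 to 0.57 for Lss, -0.21 to 0.64 for Mvd, -0.15 to 0.55 for Mvk, -0.08 to 0.38 for Mylip, -0.01 to 0.36 for Npc1, -0.15 to 0.21 for Npc2, -0.04 to 0.31 for Nr1h2, -0.28 to 0.56 for Nsdhl, -0.37 to 0.78 for Sc4mol, -0.10 to 0.33 for Sc5d, -0.31 to 0.26 for Sqle, -0.32 to 0.30 for Srebf2, -0.14 to 0.47 for Stard4 and -0.44 to 0.15 for Tm7sf2. Among genes that kept their sign, Pmvk ran from 0.03 to 0.88, Insig2 from 0.33 to 0.86, Scap from -0.54 to -0.09, Soat1 from 0.29 to 0.59 and Vldlr from 0.34 to 1.24. Such a fit holds the numbers unequally.

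Depth limits Nr1h3 and Abca1, with about 6.2 and 14 fragments in CCR7loCD137hi library 2, the shallowest.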
